A study of Mus musculus with 9 samples.

Results

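Sorted splenic B cells expressed a set of immediate early genes. It includes the AP-1 genes Fos, Fosb, Jun, Junb and Jund, the Egr genes Egr1, Egr2 and Egr3, the orphan nuclear receptor gene Nr4a1, and Ier2. These 10 genes were taken by name from an expression table of 24459 rows, each name matched 1 row, and all 10 passed the filter on low levels, which left 11597 rows averaging 0.5 FPKM or more (FPKM counts fragments scaled to transcript length and library size). RNA was sequenced from 3 splenic subsets of naïve mice of 8 to 10 weeks: follicular (FO) cells with a high surface level of IgD, follicular cells with a low level of IgD, called BDL in the study, and marginal zone (MZ) cells. FO and BDL were both gated as B220+, IgM int, CD21 int, CD23+ and CD93-, and MZ as B220+, IgM hi, CD21 hi, CD23- and CD93-. Each subset was sorted on 28 July, 29 July and 5 August from splenocytes pooled from 5 mice per sort, which gave 9 libraries, 3 per subset, with 1 library of each subset per date. The labels name the strain as C57/BL6, while the study's text names B10.PL for this experiment. The labels give no treatment.

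Immediate early genes are transcribed soon after a signal reaches the cell, without the need for new protein, and most of them encode transcription factors. Fos and Jun proteins pair to form AP-1, Egr proteins are zinc finger activators, and Nr4a1 (Nur77) is an orphan nuclear receptor whose level in B cells is widely used to report antigen receptor signaling. Signals through the ERK kinases and serum response factor, or through cyclic AMP and CREB, are known to switch on many of these genes, and the mRNAs are short-lived.

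The follicular and MZ markers checked set MZ apart from FO and BDL. IgD, which parts FO from BDL, was not among them. Fcer2a, which encodes the follicular marker CD23, was between 448 and 538 FPKM in FO, 389 and 476 in BDL and 26.0 and 34.5 in MZ. The sum of 5 MZ markers was 881 to 1023 FPKM in MZ and 169 to 204 FPKM in FO and BDL libraries. The sum of 5 T cell markers did not exceed 2.14 FPKM in any library, and the sum of 5 myeloid markers ranged from 1.77 to 10.7 FPKM. The sum of 3 plasma cell markers was 8.14 to 12.3 FPKM in BDL, 4.87 to 8.57 in MZ and 2.14 to 3.77 in FO. Of these, Sdc1 was 6.86 to 9.58 FPKM in BDL, 0.114 to 0.289 in MZ and 1.22 to 1.67 in FO. Prdm1 was 0.725 to 1.18 FPKM in BDL, 3.50 to 5.41 in MZ and 0.376 to 0.814 in FO, and Igj overlapped between all subsets. The part of these markers in the results was not tested. The deposited values hold no read counts, but the spacing of low values put the relative depth of the libraries between 0.911 and 1.22 times that of the FO library of 28 July. At that depth Egr2, the lowest of the 10 genes, rested on about 790 to 5500 fragments per library and the others on about 4500 to 149900.

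The stretch of DNA before the start of transcription is shown for 5 of the genes that the results turn on. In the deposited values, without further scaling, Fos, Jun and Egr2 were at their highest on 5 August in every subset, and Fosb and Nr4a1 on 29 July. The sequences are the 250 bases before the start in RefSeq, build GRCm38.p6: chr12:85473640-85473889 for Fos (+ strand), chr4:95052223-95052472 for Jun (- strand), chr10:67537619-67537868 for Egr2 (+ strand, 1 of 5 listed starts), chr7:19310046-19310295 for Fosb (- strand) and chr15:101266596-101266845 for Nr4a1 (+ strand). Capitals mark TGACG, the core letters of a CREB or ATF site, TGACNTCA, and the CArG box that serum response factor binds, each on either strand.
Fos: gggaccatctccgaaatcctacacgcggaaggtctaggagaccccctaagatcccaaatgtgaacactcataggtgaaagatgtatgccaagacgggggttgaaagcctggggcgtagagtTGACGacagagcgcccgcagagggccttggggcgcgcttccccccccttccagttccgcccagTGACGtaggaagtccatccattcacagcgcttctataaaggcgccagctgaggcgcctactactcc
Jun: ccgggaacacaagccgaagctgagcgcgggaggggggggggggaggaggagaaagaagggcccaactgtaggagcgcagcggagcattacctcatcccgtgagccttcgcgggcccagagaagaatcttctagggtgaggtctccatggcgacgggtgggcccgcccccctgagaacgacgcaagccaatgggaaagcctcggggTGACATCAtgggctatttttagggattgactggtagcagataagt
Egr2: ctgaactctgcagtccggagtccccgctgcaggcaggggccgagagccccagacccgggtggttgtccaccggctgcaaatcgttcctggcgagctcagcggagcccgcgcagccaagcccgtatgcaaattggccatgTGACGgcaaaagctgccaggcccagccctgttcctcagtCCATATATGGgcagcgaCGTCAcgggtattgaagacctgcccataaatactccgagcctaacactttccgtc
Fosb: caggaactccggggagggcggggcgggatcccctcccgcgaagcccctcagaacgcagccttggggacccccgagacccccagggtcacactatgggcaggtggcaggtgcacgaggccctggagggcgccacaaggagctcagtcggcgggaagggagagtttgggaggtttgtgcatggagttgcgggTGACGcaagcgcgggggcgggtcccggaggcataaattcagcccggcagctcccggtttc
Nr4a1: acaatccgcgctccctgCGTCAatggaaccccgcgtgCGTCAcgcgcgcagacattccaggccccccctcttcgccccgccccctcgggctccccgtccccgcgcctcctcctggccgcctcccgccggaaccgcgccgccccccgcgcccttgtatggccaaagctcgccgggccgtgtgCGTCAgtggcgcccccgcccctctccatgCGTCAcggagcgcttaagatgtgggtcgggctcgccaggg

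TGACG was found in 5 of the 7 windows looked up for the 10 genes (Fos, Fosb, Junb, Egr2 and Nr4a1), and in 17.8% of 32851 mouse promoter windows of the same length. Nr4a1 held 4 copies, Fos and Egr2 held 2 each, and Fosb and Junb held 1. The CArG box was found only in Egr2 among these 7 (1.47% of all windows), and TGACNTCA only in Jun (7.49%). The AP-1 letters TGANTCA (6.75% of all windows) and the full TGACGTCA, which contains TGACG (1.55%), occurred in none of the 7. Jund held none of the motifs shown in capitals. Such a match gives letters only, and bases further upstream than these windows were not searched. The promoters of Egr1, Egr3 and Ier2 are not shown.

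The 10 genes covered a wide range of levels. Junb had the highest mean over the 9 libraries, 556 FPKM, which placed it 143rd among all rows. Nr4a1 (513 FPKM), Fos (309), Jund (259.9), Fosb (189.5) and Jun (115) followed. Ier2 (89.3), Egr1 (82.9) and Egr3 (70.3) lay below them, and Egr2, at 13.4 FPKM, ranked 4603rd. Since bulk libraries were measured, fewer expressing cells and less RNA per cell cannot be told apart for any of these levels. All libraries came from sorted cells, so levels in the spleen and levels reached during preparation cannot be told apart either.

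**Figure D1:**
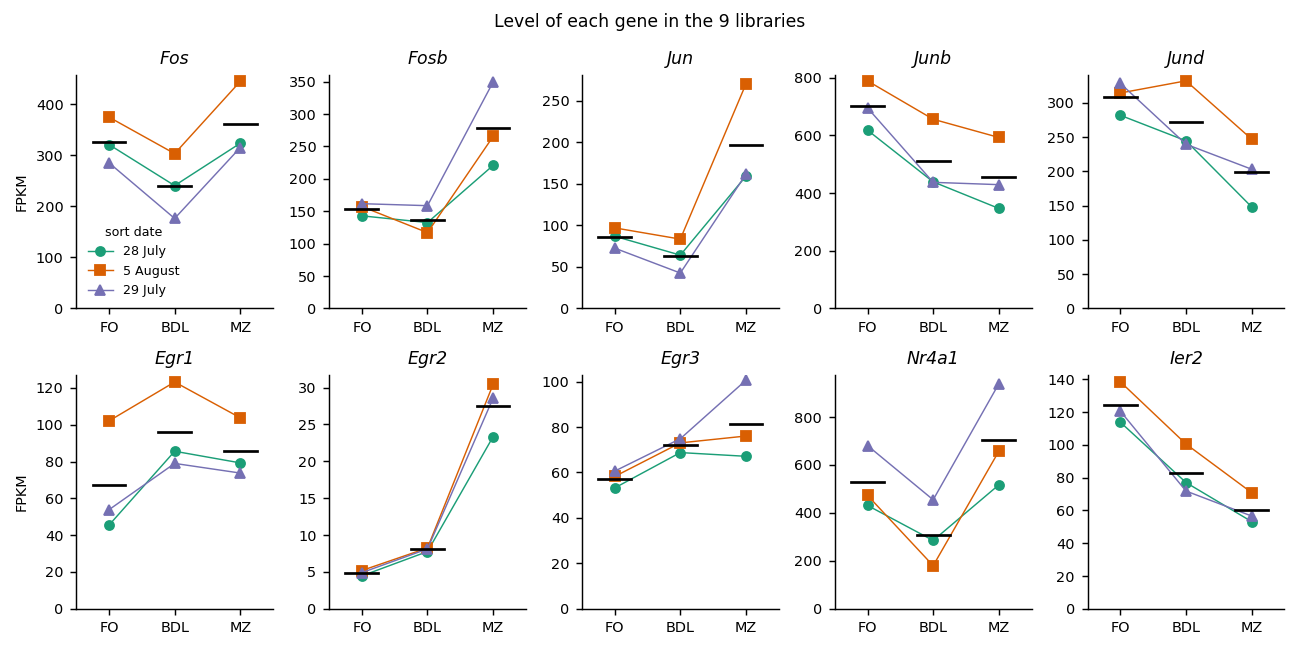
FPKM (y axis, from 0) of each of the 10 genes in FO, BDL and MZ libraries (x axis). Points are single libraries joined by sort date, and black bars are the mean of 3 libraries. The mean of Egr2 was 4.85 FPKM in FO and 27.4 FPKM in MZ, Ier2 was highest in FO on every date, and the lines for 5 August and 29 July lie apart for Fos, Jun and Nr4a1.

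The subsets were compared on log2(FPKM + 0.1) with limma over all 11597 rows, and a gene was called at a Benjamini-Hochberg adjusted p under 0.05 with a fold of at least 2. The 3 comparisons share libraries, so their results are not independent of each other. Between BDL and FO none of the 10 genes was called, against 1.91% of all rows, and 4 of the 10 had an unadjusted p under 0.05, against 24.3% of all rows. Between BDL and MZ 4 genes fell in BDL, Fosb, Jun, Egr2 and Nr4a1, against 4.34% of all rows called lower. Between MZ and FO, Jun and Egr2 rose in MZ (5.54% of all rows called higher) and Ier2 fell (3.39% called lower). By the adjusted p alone, 1 gene differed between BDL and FO (7.73% of all rows), 4 between BDL and MZ (28.1%) and 6 between MZ and FO (27.1%). Leaving out 1 library moved the count for MZ over FO to between 3 and 7, with 3 without the FO library of 28 July or of 29 July, and the count for BDL over FO to 2 without the BDL or the MZ library of 5 August. Because each date has 1 library of each subset, the date can also enter the fit as a block. The titles do not say whether the 3 libraries of a date came from 1 pool of mice. With the block, the counts called with the fold were again 0, 4 and 3 (2.13%, 8.12% and 9.22% of all rows in either direction). By the adjusted p alone, the fit with the block had 6 genes that differed between BDL and FO (20.5%), 7 between BDL and MZ (42.7%) and 7 between MZ and FO (38.8%). The median log2 fold change of the 10 genes was -0.33 for BDL over FO, against 0.05 over all rows.

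**Figure D2:**
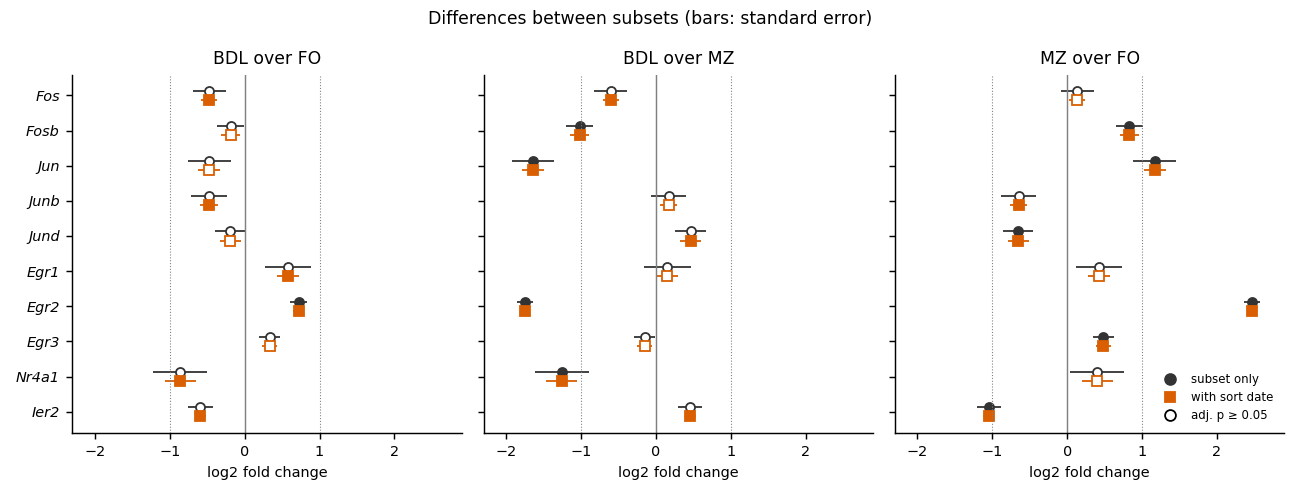
Log2 fold change of each gene in the 3 comparisons (x axis, dotted lines at a fold of 2), with bars of 1 standard error. Circles are the fit on subset alone, squares the fit that adds the sort date, and filled symbols have an adjusted p under 0.05. For BDL over FO 1 circle and 6 squares are filled, and all lie within a fold of 2.

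Between BDL and FO, 9 of the 10 genes kept 1 direction on every date, against 55.4% of all rows. Fos, Fosb, Jun, Junb, Nr4a1 and Ier2 were lower in BDL than in FO on 3 of 3 dates, and Egr1, Egr2 and Egr3 were higher on 3 of 3 dates. Jund was lower on 2 dates and higher on 1. Of all rows, 24.4% had BDL values entirely above those of FO and 10.3% entirely below. Egr2 and Egr3 had no overlap upward and Ier2 none downward.

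The 3 Jun genes did not share 1 order across the subsets. Jun, the partner of Fos in classical AP-1 and a gene of a single exon (chr4:94715725-94718913, - strand, mm9), was 86.9, 72.6 and 97.0 FPKM in FO on 28 July, 29 July and 5 August. It was 64.2, 42.7 and 83.5 FPKM in BDL and 159, 161 and 270.2 FPKM in MZ on the same dates. All 3 MZ values lay above every FO and BDL value, and FO and BDL overlapped. Jun rose in MZ over FO by 1.17 on the log2 scale (2.25-fold, SE 0.28, adjusted p = 0.0172 from limma) and was lower in BDL than in MZ by a log2 fold change of -1.64 (3.12-fold, SE 0.28, adjusted p = 0.00363). In BDL over FO the value was -0.47 with a 95% interval of -1.13 to 0.18 (adjusted p = 0.347). The MZ over FO call was lost without the FO library of 28 July (adjusted p = 0.0505) or of 29 July (0.0597), and without the MZ library of 5 August the log2 difference was 0.92. Without all 3 libraries of 28 July the adjusted p was 0.135 for MZ over FO and 0.0643 for BDL over MZ, and without those of 29 July it was 0.0587 for MZ over FO. Over 22 alternatives the adjusted p lay between 0.00164 and 0.135 for MZ over FO and between 0.000459 and 0.0643 for BDL over MZ.

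Junb, a Jun protein known to oppose Jun at some promoters, was 618, 696 and 789 FPKM in FO, 439, 437 and 656 FPKM in BDL and 347, 429 and 593 FPKM in MZ on 28 July, 29 July and 5 August. Each MZ value lay below every FO value, while BDL overlapped both. The log2 fold change was -0.48 for BDL over FO (adjusted p = 0.258, or 0.036 with the sort date in the fit), 0.17 for BDL over MZ (95% interval -0.37 to 0.71) and -0.65 for MZ over FO (adjusted p = 0.0778, or 0.00637 with the date). Jund, the Jun gene known for a steady level in resting cells, was 282, 328 and 314 FPKM in FO, 245, 239.6 and 332 FPKM in BDL and 148, 203 and 247 FPKM in MZ. The highest Jund level of all was in BDL on 5 August. Its MZ over FO value was -0.66 (adjusted p = 0.0452), under a fold of 2, and 12 of 22 alternatives kept the adjusted p under 0.05.

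Because FPKM is scaled to transcript length, the genes of a family can be set side by side within a library. Jun made up 7.84% ± 1.11 (SD, n = 3) of the summed FPKM of Jun, Junb and Jund in FO, 7.43% ± 1.36 in BDL and 23.0% ± 2.31 in MZ. The lowest MZ share, 20.3%, was above the highest share in either other subset, 8.81%. Junb held 63.9% ± 1.61 in FO, 60.2% ± 1.34 in BDL and 53.5% ± 0.533 in MZ, with no overlap between any subsets, and Jund held 28.2% ± 1.90, 32.3% ± 1.20 and 23.5% ± 1.82, again with none. Each of these separations had p = 0.1 in a two-sided exact permutation test, the smallest that 3 libraries against 3 allow. The sum of the 3 genes averaged 1095 ± 107 FPKM (SD, n = 3) in FO, 847 ± 196 in BDL and 853 ± 234 in MZ. The larger share of Jun in MZ than in FO thus stood beside a lower mean sum. The sums overlapped, at 987 to 1201 FPKM in FO and 655 to 1110.5 FPKM in MZ, and their difference was not tested.

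**Figure D3:**
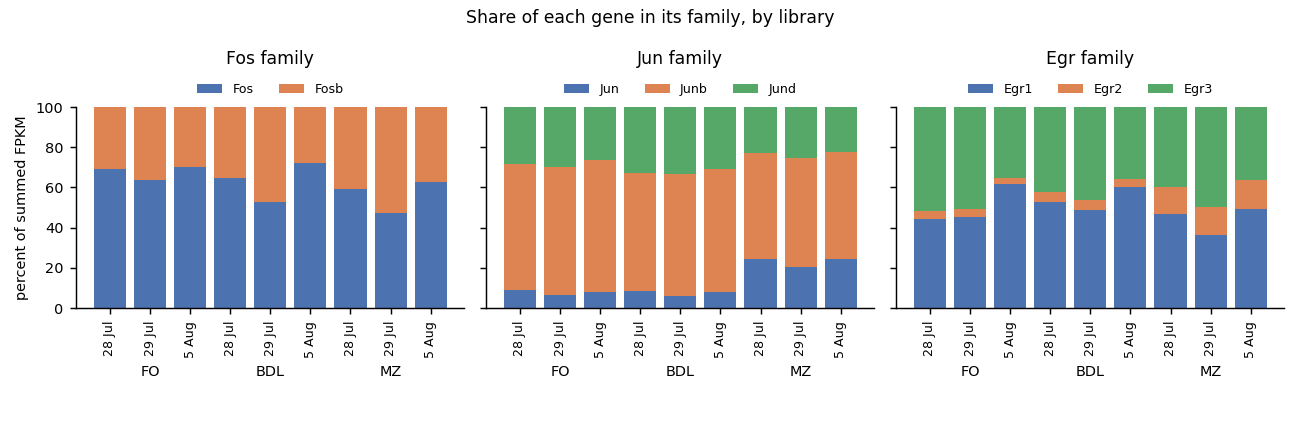
Share of each gene (y axis, percent) in the summed FPKM of its family in each library (x axis, by subset and sort date), for the Fos, Jun and Egr families. Jun takes 20.3 to 24.3% of its family in MZ and 5.93 to 8.81% elsewhere, and Egr2 takes 13.7 to 14.5% of its family in MZ and 3.13 to 5.01% elsewhere.

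Fos, which needs a Jun partner to bind DNA, was 321, 285 and 374 FPKM in FO on 28 July, 29 July and 5 August. It was 240.4, 176 and 303 FPKM in BDL, and 323, 315 and 444 FPKM in MZ. BDL lay below MZ with no overlap and was below FO on each date, and FO and MZ overlapped. The log2 fold change was -0.47 for BDL over FO (SE 0.22, adjusted p = 0.240, or 0.0294 with the sort date in the fit) and -0.61 for BDL over MZ (adjusted p = 0.0779, or 0.00571 with the date). For MZ over FO it was 0.13, with a 95% interval of -0.38 to 0.65.

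Fosb, the other Fos gene, was 143, 162 and 157 FPKM in FO, 133, 159 and 117 FPKM in BDL, and 221, 349 and 265 FPKM in MZ. MZ lay above both other subsets without overlap, and FO and BDL overlapped. Fosb was lower in BDL than in MZ by a log2 fold change of -1.02 (2.03-fold, SE 0.18, adjusted p = 0.00395), a value close to the fold limit: it was -0.92 without the BDL library of 5 August, -0.84 without the MZ library of 29 July, -0.94 without all libraries of 5 August and -0.96 without those of 29 July, with an adjusted p under 0.05 in all 22 alternatives (0.00143 to 0.0432). For MZ over FO it was 0.83 (adjusted p = 0.0101), and the adjusted p was 0.0716, 0.0509 and 0.0505 without the libraries of 28 July, 29 July and 5 August. Fosb made up 32.2% ± 3.52 (SD, n = 3) of the Fos and Fosb sum in FO, 36.9% ± 9.84 in BDL and 43.5% ± 8.02 in MZ. The MZ and FO shares did not overlap (p = 0.1, two-sided exact permutation test), and those of BDL overlapped both.

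Egr2 (chr10:66998223-67004936, + strand, mm9) had the smallest residual spread of the 10 genes and no overlap between subsets. Its level on 28 July, 29 July and 5 August was 4.46, 4.90 and 5.19 FPKM in FO, 7.76, 8.12 and 8.24 FPKM in BDL, and 23.3, 28.6 and 30.4 FPKM in MZ. The order from low to high was FO, BDL, MZ on each date. Egr2 rose in MZ over FO by 2.47 on the log2 scale (5.54-fold, SE 0.11, adjusted p = 2.25e-06) and was lower in BDL than in MZ by a log2 fold change of -1.75 (3.36-fold, SE 0.11, adjusted p = 1.69e-05). Both calls were kept in all 22 alternatives. In BDL over FO, Egr2 was 1.65-fold higher (log2 0.72, SE 0.11, adjusted p = 0.00721), which passed the adjusted p without reaching a fold of 2. That adjusted p exceeded 0.05 in 2 of 22 alternatives, at 0.142 without the libraries of 28 July and 0.150 without those of 29 July.

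Egr1 and Egr3, activators of the same zinc finger family, were less clearly ordered. Egr1 was 45.5, 53.8 and 102 FPKM in FO, 85.6, 79.0 and 123 FPKM in BDL, and 79.3, 73.7 and 104 FPKM in MZ. The FO library of 5 August reached the range of the other subsets, and those of 28 and 29 July lay below them. The log2 fold change for BDL over FO was 0.58 (95% interval -0.13 to 1.29, adjusted p = 0.293, or 0.0412 with the sort date in the fit). Egr3 was 53.2, 60.6 and 58.3 FPKM in FO, 68.8, 74.9 and 73.0 FPKM in BDL, and 67.1, 101 and 76.0 FPKM in MZ. Every BDL and MZ value of Egr3 lay above FO, and BDL and MZ overlapped. Egr3 was higher in MZ than in FO by 0.48 on the log2 scale (adjusted p = 0.0385), which 11 of 22 alternatives kept under 0.05. Egr2 was 3.86% ± 0.635 (SD, n = 3) of the summed FPKM of the 3 Egr genes in FO, 4.61% ± 0.515 in BDL and 14.1% ± 0.362 in MZ.

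Nr4a1 (chr15:101097277-101105223, + strand, mm9) had the largest residual spread of the 10 genes. It was 431, 681 and 473 FPKM in FO on 28 July, 29 July and 5 August, 285, 455 and 179.7 FPKM in BDL, and 517, 938 and 657 FPKM in MZ. BDL was the lowest subset on each date, all 3 of its values lay below those of MZ, and BDL and FO overlapped through the 29 July library of BDL. Nr4a1 fell in BDL relative to MZ by a log2 fold change of -1.26 (2.39-fold, SE 0.36, adjusted p = 0.0327). This call was kept in 13 of 22 alternatives, whose adjusted p ranged from 0.00452 to 0.160. It was lost without the FO library of 5 August (0.0531), the BDL library of 28 July (0.0782) or 5 August (0.0742), the MZ library of 5 August (0.0598) or 29 July (0.109), without all libraries of 28 July (0.160) or 5 August (0.142), with no minimum level (0.0512) and with the FO libraries left out (0.0697). In BDL over FO the value was -0.86 (SE 0.36, adjusted p = 0.190, or 0.0355 with the sort date in the fit), and within dates it was -0.60 on 28 July, -0.58 on 29 July and -1.40 on 5 August.

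Ier2, a single-exon gene (chr8:87185230-87186751, - strand, mm9) that encodes a nuclear protein induced by growth factors, had the reverse order of Egr2. It was 114, 121 and 139 FPKM in FO, 77.1, 71.9 and 101 FPKM in BDL, and 53.2, 56.6 and 70.9 FPKM in MZ. No subset overlapped another, and the order FO, BDL, MZ held from high to low on each date. Ier2 fell in MZ relative to FO by a log2 fold change of -1.05 (2.07-fold, SE 0.16, adjusted p = 0.00176). The difference was -0.97 without the FO library of 5 August and -0.97 without the MZ library of 28 July, -0.98 after quantile normalization, and -1.03 with an adjusted p of 0.0540 without the libraries of 28 July. For BDL over FO it was -0.59 (adjusted p = 0.0645, or 0.00634 with the sort date in the fit), and for BDL over MZ 0.46 (adjusted p = 0.0667, or 0.00415 with the date).

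Without overlap between BDL and MZ, 5 of the 10 genes were lower in BDL, Fos, Fosb, Jun, Egr2 and Nr4a1 (16.4% of all rows), and Ier2 was higher (22.6%). Between MZ and FO, 4 were higher in MZ, Fosb, Jun, Egr2 and Egr3 (23.6%), and 3 were lower, Junb, Jund and Ier2 (22.5%).

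Of the 10 genes, 9 were at their highest on 1 and the same sort date in all 3 subsets, against 37% of all rows. Fos, Jun, Junb, Egr1, Egr2 and Ier2 were at their highest on 5 August in all 3 subsets, 6 of 10 against 21% of all rows. Fosb, Egr3 and Nr4a1 were at their highest on 29 July in all 3 subsets, 3 of 10 against 7.77% of all rows. Jund had no single date of highest level, and none of the 10 was highest on 28 July throughout, against 8.19% of all rows. After scaling each library by its upper quartile, 5 were highest on 5 August (13.8% of all rows, without Egr2) and 3 on 29 July (9.96%). After quantile normalization 5 were highest on 5 August (without Egr2) and 2 on 29 July (without Fosb). The share of all rows was not taken for that scaling. The summed FPKM of the 5 August libraries was the largest in each subset, 461648 in FO, 477024 in BDL and 517208 in MZ.

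Averaged over the subsets, the 5 August libraries deviated from the subset means by 0.46 for Egr1, 0.38 for Jun, 0.33 for Junb, 0.30 for Fos and 0.23 for Ier2 on the log2 scale. Those of 29 July deviated by 0.51 for Nr4a1, 0.22 for Fosb and 0.15 for Egr3, while Fos and Jun deviated by -0.26 and -0.33. In the F-test of limma for the sort date, none of the 10 genes had an adjusted p under 0.05 (1.6% of all rows did), and 8 of the 10 had an unadjusted p under 0.05 (34.6% of all rows). Their adjusted p values ranged from 0.0790 for Ier2 to 0.164 for Egr3, with 1 library of each subset per date.

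**Figure D4:**
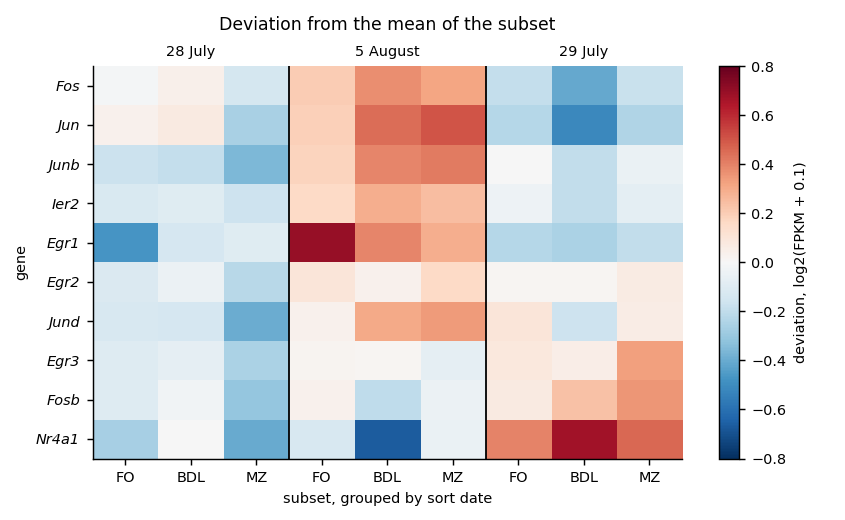
Deviation of each library from the mean of its subset (colour, on log2(FPKM + 0.1)) for the 10 genes (y axis) by sort date and subset (x axis). The 5 August libraries are red for Fos, Jun, Junb, Ier2 and Egr1, and those of 29 July are red for Egr3, Fosb and Nr4a1.

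Of the 10 genes, 9 spread more within a subset than the median row. The residual SD around the subset means had a median of 0.29 on the log2 scale over the 10 genes, against 0.18 over all rows and 0.17 over the 5709 rows that averaged 10 FPKM or more. Nr4a1 (0.50) and Egr1 (0.43) lay at percentiles 93.0 and 91.3 of all rows, Jun (0.40) at 89.6 and Egr2 (0.13) at 28.9. A median of 79.2% of the within-subset variance of the 10 genes was shared by date, against 63.2% over all rows.

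The deviations of genes also moved in groups across the 9 libraries, here as a description over libraries that share dates and depth. Fos and Jun followed each other most closely (Pearson r 0.99), Junb followed Ier2 (0.97) and Jund (0.95), and Fosb followed Nr4a1 (0.89) and Egr3 (0.86). Fos and Nr4a1 ran opposite to each other (-0.73). The mean deviation of the 10 genes stood for them unevenly, with r 0.94 for Egr2, 0.93 for Junb, 0.92 for Jund and 0.87 for Ier2. Its r was 0.72 for Egr1, 0.67 for Jun, 0.66 for Fos, 0.46 for Egr3, 0.26 for Fosb and -0.015 for Nr4a1. The 10 rows outside these genes whose deviations were most like the mean deviation of the 10 were Nup133 (r 0.99), Rrp12, Aacs, Samd4b, Ints9, Dyrk3, Josd1, Wdr36, Il2rg and Pfkl (0.96), out of 11587 rows ranked over 9 libraries. Without centring on the subsets they were Itgb2 (0.96), Tle3, Rraga, Sept9 and Siah2 (0.96). None of these belonged to the immediate early lists below.

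Other immediate early genes passed the test for sort date that the 10 genes missed. Over 5 lists of related genes, 13 of 81 genes tested had an adjusted p under 0.05 for sort date, against 1.6% of all rows, and all 13 were at their highest on 29 July in all 3 subsets, as were 84 of the 185 rows called over the whole table. Fosl2, a further Fos gene, was 0.700, 3.22 and 1.12 FPKM in FO on 28 July, 29 July and 5 August, 0.743, 3.69 and 0.945 FPKM in BDL and 4.72, 20.5 and 6.91 FPKM in MZ (adjusted p = 0.00147). Nr4a3, a relative of Nr4a1, was 0.812, 4.72 and 0.674 FPKM in FO, 0.571, 2.80 and 0.720 FPKM in BDL and 3.79, 33.1 and 3.44 FPKM in MZ (adjusted p = 0.0218). Crem, which encodes cyclic AMP responsive repressors and activators, was 7.06, 22.2 and 7.54 FPKM in FO, 5.72, 16.5 and 6.504 FPKM in BDL and 11.1, 30.2 and 11.6 FPKM in MZ, and had the smallest adjusted p, 0.000733. In each of these genes the 29 July library was the highest of its subset.

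The remaining genes past the test were Dusp5, a phosphatase acting on ERK (adjusted p = 0.00624), the small Maf gene Maff (0.00922), the B cell activation marker Cd83 (0.0173), the NF-kappaB subunit Rel (0.0184), Socs3 (0.0355), Nfil3 (0.0370), Ier5l (0.0441), Gadd45a (0.0441), Sik1 (0.0441) and Nr4a2 (0.0472). By list, 4 of 8 further AP-1 genes and 2 of 4 Egr and Nr4a relatives and Egr corepressors were highest on 29 July in all subsets, against 7.77% of all rows. Of 37 other immediate early genes 15 were highest on 29 July, 10 on 5 August (21% of all rows) and 1 on 28 July (8.19%). Among 22 upstream and feedback genes of the ERK and SRF route 3 were highest on 29 July and 5 on 5 August, and among 10 heat shock genes 1 and 2 were, with none past the test in either list, where 8 of 22 and 6 of 10 genes had an unadjusted p under 0.05, against 34.6% of all rows. Some markers of other cells were also at their highest on 29 July in all 3 subsets. These were 5 of 5 myeloid, 3 of 5 T cell, 1 of 2 NK and 2 of 3 plasma cell markers. No erythroid row (0 of 4) and no germinal centre B marker (0 of 3) was. The erythroid rows summed to 0.963 to 3.44 FPKM on 29 July and 2.03 to 4.87 on the other dates. The myeloid markers summed to 8.80 to 10.7 FPKM on that date and 1.77 to 3.52 on the others, the T cell markers to 1.93 to 2.14 against 0.779 to 1.66, the NK markers to 0.582 to 0.807 against 0.108 to 0.572, and the plasma cell markers to 3.77 to 12.3 against 2.14 to 11.7. S100a9 was 2.39 FPKM in FO, 2.28 in BDL and 1.95 in MZ on 29 July and at most 0.265 on the other dates, and Lyz2 was 2.87, 2.43 and 3.25 FPKM against at most 0.964. Their part in the date pattern was not tested. The titles of the 29 July libraries, and no others, carry the word Splenic.

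**Figure D5:**
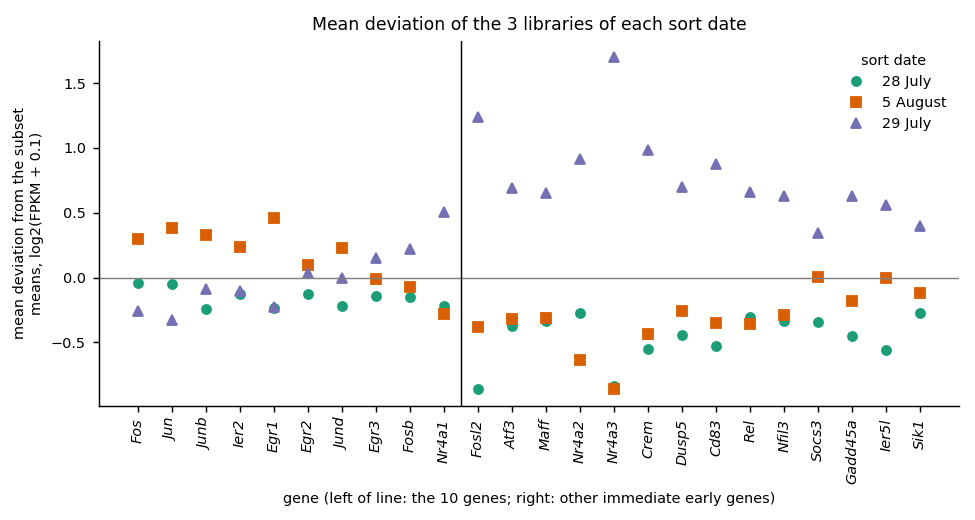
Mean deviation of the 3 libraries of each sort date from the subset means, on log2(FPKM + 0.1) (y axis), for the 10 genes (left of the line) and, right of the line, the 13 genes past the date test and Atf3 (x axis). The 29 July values run from 0.34 for Socs3 to 1.70 for Nr4a3 on the right, while on the left 5 August is the highest date for 7 genes and 29 July for 3.

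The relatives of the 10 genes differed between subsets mainly in MZ. Among 8 further AP-1 genes tested, Atf3, Fosl2 and Jdp2 rose in MZ over FO (log2 fold changes 4.11, 2.58 and 1.47) and Maf fell (-1.68), against 5.54% and 3.39% of all rows called higher and lower. In BDL over MZ, Atf3, Fosl2 and Jdp2 were lower (-3.70, -2.57 and -1.18) and Maf higher (1.75), and Maff (-1.03, adjusted p = 0.0934) was called as well with the sort date in the fit (0.000235). No AP-1 relative was called in BDL over FO, where the largest values were 0.41 for Atf3 and 0.30 for Jdp2. Atf3, a stress-induced bZIP factor that can pair with Jun, was 9.30, 17.7 and 8.80 FPKM in FO on 28 July, 29 July and 5 August, 13.5, 26.1 and 9.70 FPKM in BDL and 124, 309 and 201 FPKM in MZ.

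Of the 4 Egr and Nr4a relatives tested, Nab1, a corepressor of Egr proteins, rose in MZ over FO by 1.35 and Nab2, the other corepressor, fell by 1.51 on the log2 scale, and Nr4a2 rose by 1.94. In BDL over MZ the log2 fold changes were -1.08 for Nab1, 1.77 for Nab2 and -2.43 for Nr4a2. Nr4a3 was not called on subset alone, at 2.36 for MZ over FO (adjusted p = 0.142) and -2.72 for BDL over MZ (0.0908), and was called with the sort date in the fit (0.000861 and 0.000518). Nab2 was 13.1, 12.3 and 13.4 FPKM in FO, 15.3, 14.1 and 16.9 FPKM in BDL and 4.18, 4.53 and 4.68 FPKM in MZ, opposite in order to Egr2 between MZ and both other subsets. None of the 4 was called in BDL over FO, where Nr4a2 and Nr4a3 had the largest values (-0.49 and -0.36, adjusted p = 0.633 and 0.861).

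In BDL over FO, Spred1 and Spry2, inhibitors of the ERK route, were the only genes of 22 upstream and feedback genes called, both higher in BDL (log2 fold changes 1.47 and 1.26, adjusted p = 0.00448 and 0.0459), and Socs3, an inhibitor of cytokine signaling, was the only 1 of 37 other immediate early genes called (-1.27, adjusted p = 0.0220). Of all rows, 1.64% were called higher and 0.267% lower in that comparison. Spred1 was 0.576, 0.863 and 0.619 FPKM in FO, 1.74, 2.05 and 2.43 FPKM in BDL and 0.362, 0.315 and 0.312 FPKM in MZ on 28 July, 29 July and 5 August. Without the FO or the BDL library of 5 August, 1 of these 3 was called. In BDL over MZ, 6 of the 22 were called, all higher in BDL, against 3.47% of all rows (Dusp4 1.42, Mapk3 1.10, Mef2c 1.14, Spred1 2.33, Spred2 2.43 and Spry2 2.37). In MZ over FO, Dusp4, Spred2 and Spry2 fell by 1.54, 1.87 and 1.11, 3 of 22 against 3.39% of all rows called lower.

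In the 37 other immediate early genes, 7 were lower and 3 higher in BDL than in MZ, against 4.34% and 3.47% of all rows. Myc (-2.01), Rhob (-1.86), Nfil3 (-1.79), Pim1 (-1.78), Gadd45a (-1.41), Ppp1r15a (-1.37) and Nfkbiz (-1.17) were lower, and Ier5l (1.44), Zfp36l2 (1.04) and Klf10 (1.03) higher. In MZ over FO, Nfil3, Myc, Pim1 and Rhob rose (1.94, 1.76, 1.71 and 1.19) and Ier5l, Zfp36l2 and Klf2 fell (-1.70, -1.16 and -1.02), against 5.54% and 3.39% of all rows, and Gadd45a (1.17, adjusted p = 0.0698) was called as well with the sort date in the fit (0.00116). Over all 5 lists, 23 of 81 genes tested were called for BDL over MZ, or 15 without the BDL library of 5 August. For MZ over FO 17 of the 81 were called, or 11 without the FO library of 5 August. Of all rows, 3.47% were called higher and 4.34% lower in BDL over MZ, and 5.54% higher and 3.39% lower in MZ over FO. Without the date in the fit, none of 10 heat shock genes was called in any comparison. Bag3 had the largest value in BDL over MZ (-1.31, adjusted p = 0.0514), and with the sort date in the fit it was called there (adjusted p = 0.00144). In BDL over FO the largest values were -0.79 for Bag3 (adjusted p = 0.296) and 0.67 for Hspe1 (adjusted p = 0.0287). In MZ over FO they were 0.57 for Hspa5 (adjusted p = 0.0418) and 0.56 for Hspe1 (adjusted p = 0.0213), both under a fold of 2.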

How the data were processed

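Libraries were made with an Illumina kit that the labels call not strand specific and the study's text calls stranded. If strand was not kept, reads of overlapping antisense genes could not be told apart. The FPKM values were deposited by the authors as 1 table of all 9 libraries. According to the submitters' notes, reads were aligned to mouse build mm9 with TopHat2 2.1.0 and quantified with Cufflinks and Cuffdiff. The authors' own fold change table was not used. Groups and dates were taken from the sample titles, and no column lacked a sample.

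Rows averaging 0.5 FPKM or more were kept, 0.1 was added and log2 was taken. limma 3.58.1 in R 4.3.3 (trend on) was fitted on subset over all 9 libraries, with Benjamini-Hochberg adjustment over 11597 rows. The fit was tested on simulated data with known changes and with noise independent between libraries, so not with noise shared by date. Replicates are separate sorts of pooled mice. Since the titles give 1 date to the same-numbered libraries of all subsets, the numbers pair the samples by date only. Correlations of same-date deviations over all rows were -0.06 to 0.15 (BDL and FO), 0.10 to 0.24 (BDL and MZ) and 0.01 to 0.02 (MZ and FO). The unit of depth, 1 fragment per kilobase, was estimated at 0.0137 to 0.0183 FPKM from transcripts of at least 3000 nt, where 70.9 to 78.7% of low values lay within 0.1 of whole, against 20% by chance. Family shares were compared by two-sided exact permutation tests. Figures were drawn with matplotlib 3.10.9 in Python 3.11.15. The genes, related lists and tests were chosen with earlier results of these data known. Named list genes were those called in a comparison with or without the block, or else the 2 with the largest change, and the genes past the date test. Alternatives were the amount added, the minimum level, the libraries in the fit, the block, the scaling, the variance model, the call rule and leaving out libraries or dates. The likeness ranking used Pearson r. The sequences come from RefSeq (GRCm38.p6), where 7 windows were matched.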

Additional observations from a re-analysis of the deposited data

How the results depend on the processing

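The number of the 10 genes called was 0 for BDL over FO, 4 for BDL over MZ and 3 for MZ over FO. With the replicate block for sort date these counts were the same. By the adjusted p alone they were 1, 4 and 6, and with that block 6, 7 and 7. Leaving out 1 library gave 0, 2 to 4 and 2 to 3, and 1 to 2, 3 to 5 and 3 to 7 by the adjusted p alone. Leaving out a whole sort, chosen after the data were seen like the block at adjusted p alone, gave 2 for BDL over MZ without 28 July or 5 August and 1 for MZ over FO without 28 July. Over all rows, BDL over FO had 221 calls, 94 with 1 added to the FPKM, 896 by the adjusted p alone, 22 without the 28 July sort and 91 without the 29 July sort. BDL over MZ had 905 and 3255 by the adjusted p alone. MZ over FO had 1035, 674 with 1 added and 3141 by the adjusted p alone. In the related lists, 3 of 81 genes tested were called for BDL over FO (1 with 1 added, 1 to 3 without 1 library, 0 without 28 July and 1 without 5 August or 29 July), 23 for BDL over MZ (15 to 24 without 1 library, 14 without 28 July) and 17 for MZ over FO (11 to 18 without 1 library, 10 without 28 July and 11 without 5 August). These counts stand beside the 221, 905 and 1035 calls given above, out of 11597 rows. Small differences turned direction: Junb in BDL over MZ ranged from -0.023 to 0.38 over the libraries left out (-0.023 without BDL replicate 2, -0.0094 without MZ replicate 1), Egr1 from -0.042 (without BDL replicate 2) to 0.30, Egr3 from -0.28 to 0.015 (without MZ replicate 3), and Fos in MZ over FO from -0.025 (without MZ replicate 2) to 0.24. The cause of these turns in direction was not tested. Relative to the mean log2 level of the 3 Egr genes, Egr3 was higher in BDL than in MZ by 0.43, while its share differed by -0.317 percentage points. That mean includes Egr2, whose log2 fold change for BDL over MZ was -1.75. The date test called none of the 10 genes in any of 8 alternatives. With 3 libraries per subset, fold changes carry wide intervals, and FPKM without counts does not let the fit weight values by their counting error.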
